A study of Pinellia ternata with 12 samples.

Results

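The miRNA families miR160, miR164, miR167 and miR393 were followed in leaf libraries of Pinellia ternata, from heat-stressed and control seedlings. Members were all rows of the deposited miRNA table whose name, after the species prefix, is one of these 4 family numbers followed by a letter, a hyphen or nothing. The rule found 87 of 1597 names, of which 18 were miR160, 23 were miR164, 30 were miR167 and 16 were miR393. The names came from 31 species, and each of the 87 names stood for its own sequence. Values are RPM (reads per 1000000), that is, shares of the reads assigned to the 1597 names.

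P. ternata is a medicinal plant of the arum family. The heat group was held at 40 ℃ for 24 h and labelled day 1, and the control group stayed at 25 ℃ with 0 h of heat and was labelled day 0. Both groups were raised from tubers in the same incubator at 25 ℃ and 4000 lx, with 16 h of light a day, so that heat and 1 more day of growth cannot be told apart. Each group had 3 miRNA-seq libraries and 3 RNA-seq libraries, called biological replicates, and no label said whether a miRNA library and an RNA library of the same number came from the same plants. One treatment label called every library heat-treated, and the grouping rests on the sample titles instead. Leaf identity was not checked against leaf marker genes, because the unigene names at hand covered only part of the genes.

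The miRNA libraries held 1037512, 479324 and 1475482 assigned reads under heat, against 923768, 2039055 and 871814 in control, so that 1 read was worth 0.490 to 2.09 RPM. Control replicate 2 stood apart. Its log2 levels correlated with those of the other libraries at r = 0.669 to 0.782, against 0.808 to 0.905 among the other 5, and 134 of the 901 names with a mean of at least 10 RPM were more than 3 times higher there than in any other library. The most abundant name of the table, ctr-miR166, took 38.9%, 31.1% and 42.2% of the assigned reads under heat, against 25.0%, 18.6% and 26.4% in control, so that all other names shared a smaller part of the total under heat. Across all names the median log2 fold change was −0.37, and it was −0.22 after rescaling by the median ratio. In the RNA-seq libraries, 11 unigenes annotated with a potyvirus term or as a polyprotein summed to 605.6, 4409 and 3419.7 TPM (transcripts per 1000000) under heat, against 0.0611, 0.0199 and 0 TPM in control. They came from the part at hand of the study's gene table, which lists genes screened as changed in these libraries. Their part in any miRNA difference was not tested.

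In plants a miRNA is cut from a hairpin as a duplex of a 5p and a 3p strand, and 1 strand is usually the one that guides cleavage of matching mRNAs. In Arabidopsis the 5p strands of these families act at successive steps of auxin signalling. miR393 targets the auxin receptors of the TIR1/AFB group, miR160 targets the repressor-type auxin response factors ARF10, ARF16 and ARF17, miR167 targets the activator-type factors ARF6 and ARF8, and miR164 targets NAC transcription factors such as NAC1 and the CUC genes. The 3p strands are often less abundant and are less well understood.

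The sequences below are those of the most abundant 5p-type names, chosen because the family levels rest on them, with bases 2 to 8, the seed, in capitals. Names that give no arm were put with the 5p type where they held the core of the family's 5p strand and otherwise with the 3p type, which gave 45 5p-type and 42 3p-type names.
mes-miR160h: uGCCUGGCucccuguaugccauu
vvi-miR160a: uGCCUGGCucccugaaugccauc
bra-miR164e-5p: uGGAGAAGcagggcacgugcaa
zma-miR164h-5p: uGGAGAAGcagggcacgugug
osa-miR164d: uGGAGAAGcagggcacgugcu
ccl-miR167a: uGAAGCUGccagcaugaucuga
tae-miR167c-5p: uGAAGCUGccagcaugaucugc
bna-miR167a: uGAAGCUGccagcaugaucuaa
mdm-miR167h: uGAAGCUGccagcaugaucuua
ata-miR393-5p: uUCCAAAGggaucgcauugau
gma-miR393h: uUCCAAAGggaucgcauugauc
ath-miR393a-5p: uCCAAAGGgaucgcauugaucc

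Within a family the 5p-type names shared most of their bases. Of the 11 miR160 names of this type 10 had the seed GCCUGGC, and 12 of the 13 miR164 names had GGAGAAG. The seed GAAGCUG stood in 10 of the 14 miR167 names, 6 of which were identical over their first 20 bases. The 7 miR393 names fell into 3 overlapping seeds that start 1 or 2 bases apart. Counts over names are therefore not counts over independent miRNAs.

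The 3p-type names below are shown because most of the names called lower under heat were of this type. They varied far more, with 6 seeds in 7 miR160 names, 5 in 10 miR164 names, 10 in 16 miR167 names and 6 in 9 miR393 names, and the capitals again mark bases 2 to 8.
osa-miR160d-3p: gCGUGCGAggagccaagcaug
gma-miR160a-3p: gCGUAUGAggagccaagcaua
zma-miR164c-3p: cAUGUGCCcuucuucuccauc
zma-miR164b-3p: aUGUGCCCaucuucuccacc
zma-miR167j-3p: gAUCAUGUggcaguuucauu
mdm-miR167a: aGAUCAUCuggcaguuucacc
ptc-miR167f-3p: aGAUCAUGuggcaguuucacc
osa-miR167c-3p: gGUCAUGCugcggcagccucacu
ata-miR167d-3p: aGGUCAUGuggcagcuucauu
ptc-miR393a-3p: aUCAUGCUaucccuuuggauu

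Together the 87 names took 3.46%, 2.89% and 2.52% of the assigned reads under heat, against 8.33%, 3.94% and 3.81% in control. Every heat library was below every control library. The miR167 family made up most of this share in every library, and miR160 was the least abundant of the 4.

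Summed over its names, miR167 came to 23539, 20462 and 16528 RPM under heat, against 59574, 27715 and 27309 RPM in control, and the groups did not overlap. The miR393 family summed to 7478, 2416 and 2535 RPM under heat, against 15973, 6314 and 6353 RPM in control. Here heat replicate 1 lay above 2 control libraries, so that the groups overlapped. For miR160 the sums were 1259.7, 605 and 579 RPM under heat, against 2843, 1609 and 1167 RPM in control, with heat replicate 1 again the highest of its group and above control replicate 3. miR164 went another way, with 2354, 5418 and 5576 RPM under heat, against 4958, 3773 and 3289 RPM in control. Its heat libraries 2 and 3 were above every control library and heat replicate 1 was below all of them.

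No family passed the call rule of an unadjusted limma p under 0.05 with a log2 fold change over 1 in size, which 6.15% of the 699 family sums passed as lower and 3.0% as higher (0.00% and 0.143% at an adjusted p under 0.05). The miR393 sum had a log2 fold change of −1.27 (SE 0.67, limma adjusted p = 0.620), and the miR160 sum a log2 fold change of −1.20 (SE 0.60, limma adjusted p = 0.594). For the miR167 sum limma gave a log2 fold change of −0.83 (SE 0.56, limma adjusted p = 0.667), and for the miR164 sum a log2 fold change of 0.07 (SE 0.57, limma adjusted p = 0.969). Without heat replicate 1 the miR393 sum passed the rule with a log2 fold change of −1.80, and so did the miR160 sum with −1.56, both as lower. The share of all family sums that passed in that fit is not given here. Leaving out control replicate 2 gave −1.49 for miR393 and −1.26 for miR160, and neither passed.

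Sums were also taken by arm. The 3p-type names of miR167 summed to 3890.1, 920.0 and 574 RPM under heat, against 11762, 8101 and 7273 RPM in control, with no overlap, whereas the 5p-type names summed to 19649, 19542 and 15954 RPM under heat, against 47813, 19614 and 20035 RPM in control, where heat replicate 1 exceeded control replicate 2. Heat replicate 1 kept far more of the 3p type than heat replicates 2 and 3. For miR393 the 3p-type sums were 5042, 528 and 695 RPM under heat, against 10975, 3587 and 3808 RPM in control, and the 5p-type sums 2436, 1888 and 1840.1 RPM under heat, against 4998, 2727 and 2545 RPM in control. Only the 5p-type sums of miR393 were without overlap. In miR160 the 3p-type sums were 416, 154 and 96.2 RPM under heat, against 1411, 639.5 and 398 RPM in control, and the 5p-type sums 843, 451 and 483 RPM under heat, against 1432, 969 and 769 RPM in control; in both types 1 heat library lay above 1 control library. The 5p-type names of miR164 held 2098, 4442 and 4494 RPM under heat, against 3560.4, 2612 and 2994 RPM in control, and its 3p-type names 255, 976 and 1082 RPM under heat, against 1398, 1162 and 295 RPM in control, and both types overlapped between the groups.

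**Figure D1:**
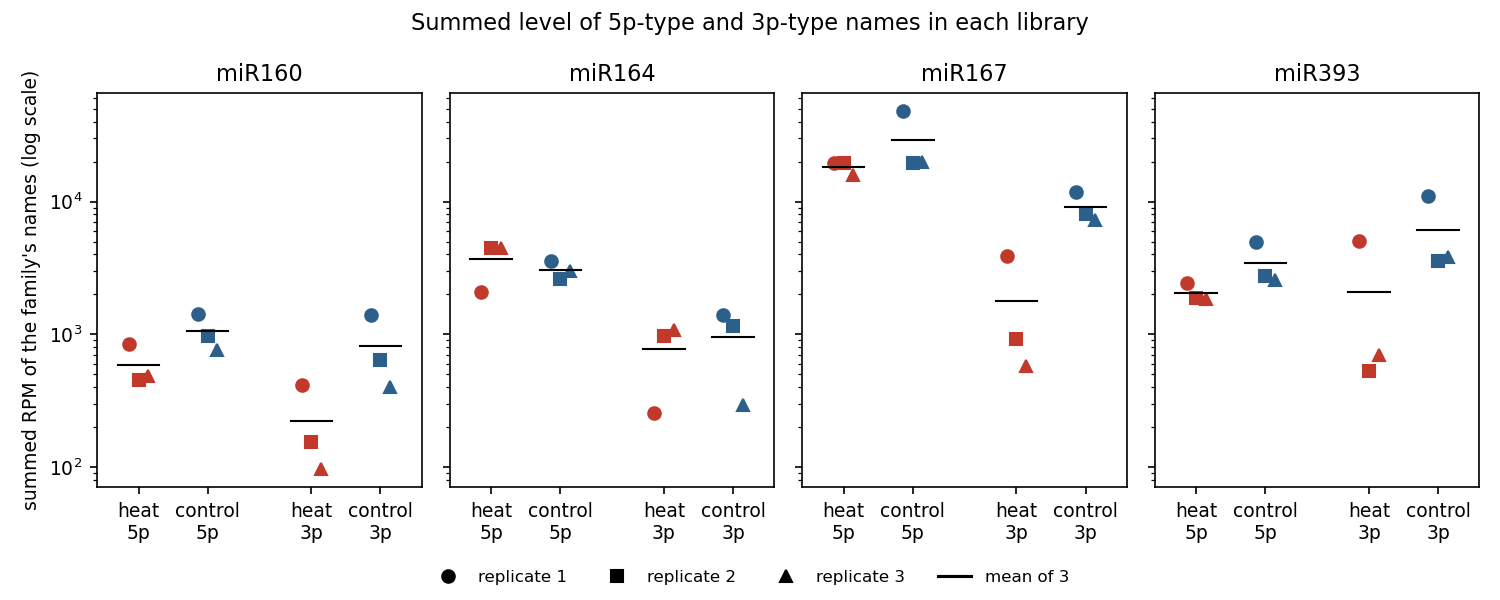
Summed RPM (log scale) of the 5p-type and 3p-type names of each family in the 3 heat (red) and 3 control (blue) libraries, with symbols for the replicate number and a bar for the mean. The 3p-type sums of miR167 lie between 574 and 3890.1 RPM under heat, below the 7273 to 11762 RPM of control, while its 5p-type sums overlap.

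As a share of the family, the 3p type of miR167 was 16.5%, 4.50% and 3.47% under heat, against 19.7%, 29.2% and 26.6% in control. The means were 8.17% ± 7.26 under heat and 25.2% ± 4.90 in control (SD, n = 3 each), a difference of −17.0 points with a two-sided exact permutation p of 0.1, the smallest that 3 against 3 libraries allow. Without zma-miR167j-3p, the most abundant name of that type, the miR167 difference was −7.63 points. The miR160 share was 33.1%, 25.5% and 16.6% under heat, against 49.6%, 39.8% and 34.1% in control, a difference of −16.1 points (exact permutation p = 0.1). It shrank to −4.65 points without osa-miR160d-3p, the most abundant miR160 name of that type. For miR393 the share was 67.4%, 21.8% and 27.4% under heat, against 68.7%, 56.8% and 59.9% in control (−22.9 points, exact permutation p = 0.3). That difference rested on ptc-miR393a-3p alone, since it was −0.18 points without this name, and it was −37.2 points without heat replicate 1. The miR164 share differed by −6.55 points (exact permutation p = 0.5), and by −10.9 points without its most abundant 3p-type name, aly-miR164c-3p. Over the names that give their arm alone, the differences were −0.65 points for miR160, −8.01 for miR164, −36.5 for miR167 and −31.6 for miR393. These values rest on other sets of names and are no check on the shares above. The only miR160 5p-type name left was osa-miR160e-5p, with a mean of 1.71 RPM, so that the miR160 share could hardly move. For miR167 the abundant 5p-type names ccl-miR167a and bna-miR167a were left out. Each of the 4 shares was tested on its own without adjustment, and with 3 against 3 libraries no p could pass 0.05.

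Name by name, 14 of the 87 members (16.1%) were called lower under heat and 0 were called higher by the unadjusted rule. Over all 1597 names 7.14% were called lower and 2.13% higher. At an adjusted p under 0.05 no member was called in either direction by limma, and 1 name of the whole table was called higher (0.0626%) and 0 lower (0.00%). By type, 10 of 42 3p-type members (23.8%) and 4 of 45 5p-type members (8.89%) were called lower. Among members whose name gives the 3p arm 9 of 36 (25.0%) were called lower, and among all other names of the table that give it 19 of 291 (6.53%). The corresponding counts for the 5p arm were 1 of 11 (9.09%) and 19 of 273 (6.96%). These differences between sets of names were not tested, since names of a family share sequence. In 13 of the 14 called names heat replicate 1 was the highest heat library and in 13 heat replicate 2, the library with the fewest reads, was the lowest. With control replicate 2 left out 6 members were called lower, and with control replicate 1 left out also 6. The number was 8 with either heat replicate 2 or heat replicate 3 left out, and 18 when heat replicate 1 was. The share of all names called in these fits is not given here, so that these counts have no background. The median log2 fold change over all names moved too, from −0.12 without control replicate 2 to −0.55 without control replicate 3.

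**Figure D2:**
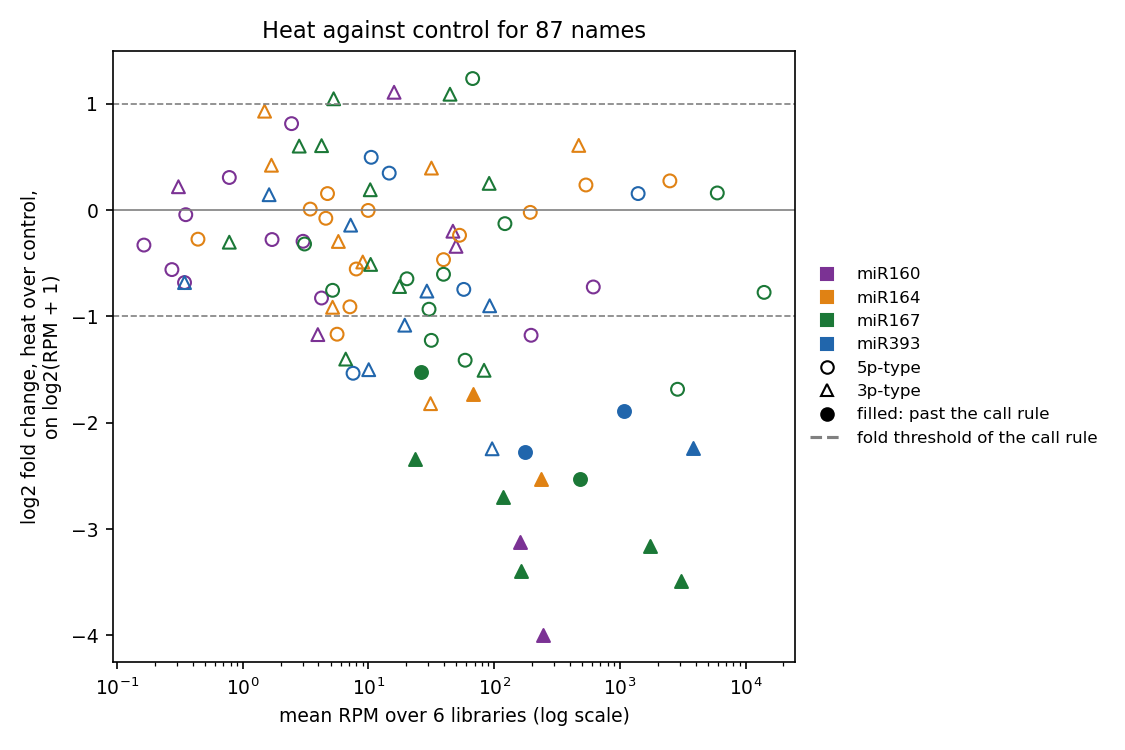
Log2 fold change of heat over control, on log2(RPM + 1), against the mean RPM of each of the 87 names (log scale), with the family as colour, circles for the 5p type, triangles for the 3p type and filled symbols for names past the call rule. The 14 filled symbols all lie below −1 and reach −3.99, and 10 of them are triangles.

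Rescaling moved the split of calls. Over all names, 34 were called higher and 114 lower on the RPM scale, against 57 and 76 after rescaling by the median ratio. Under that scaling 10 of the 87 members were called lower, against 4.76% of all names, and 0 higher, against 3.57% of all names. The 4 that lost their call were gma-miR160a-3p, osa-miR167c-3p, ppt-miR167 and ptc-miR393a-3p. The median log2 fold change of the members was −0.55 on the RPM scale, against −0.37 over all names, and −0.35 against −0.22 after rescaling. In all, 63 of 87 members had a log2 fold change below 0, as did 1054 of 1597 names. Count models were also fitted to the recovered reads. edgeR, which kept 50 of the 87 members, called 3 of them lower, namely ata-miR167d-3p, mdm-miR167h and ptc-miR167f-3p, and 0 higher, against 8.50% and 7.12% of the names it kept. DESeq2 called 4 members lower and 2 higher, against 5.76% and 3.76% of all names. Those lower were mdm-miR167h and ptc-miR167f-3p, which limma also called, and aly-miR167b-3p and ath-miR164b-3p, which it did not. The other 12 names called by limma were not called by DESeq2.

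In the miR167 family 7 of 30 names (23.3%) were called lower, against 7.14% of all names. The most abundant of its 3p-type names, zma-miR167j-3p, had 2525, 142 and 265 RPM under heat, against 5772, 4055 and 5793 RPM in control. All heat libraries were below all control libraries, and heat replicate 1 was far above the other heat libraries (log2 fold change −3.49, SE 0.98, limma adjusted p = 0.414). The call did not hold without control replicate 2, where the log2 fold change was −3.66, nor with edgeR or DESeq2, which gave smaller changes of −2.01 and −1.88. Its neighbour mdm-miR167a, whose name gives no arm, had 1076, 106 and 173 RPM under heat, against 5307, 2873 and 949 RPM in control. Heat replicate 1 lay above control replicate 3, so that these groups overlapped (log2 fold change −3.16, SE 0.96, limma adjusted p = 0.443), and the call was lost without control replicate 1 or control replicate 2, where the log2 fold change was −2.60 and −3.05, and with edgeR and DESeq2 (−2.29 and −2.14).

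ptc-miR167f-3p is as long as mdm-miR167a and differs from it by 1 base, G8C, counted from the 5′ end with the base of ptc-miR167f-3p first. It had 66.5, 6.26 and 24.4 RPM under heat, against 146, 559 and 174 RPM in control. The groups did not overlap (log2 fold change −3.39, SE 0.90, limma adjusted p = 0.341), and this was the only member called under all 16 alternatives that were run on names. Without control replicate 2, where it was more than 3 times higher than elsewhere, its log2 fold change was −2.79. The related ata-miR167d-3p had 16.4, 2.09 and 7.46 RPM under heat, against 39.0, 39.7 and 35.6 RPM in control, with control libraries close together and all heat libraries below them (log2 fold change −2.35, SE 0.76, limma adjusted p = 0.455). Its heat values rest on 17, 1 and 11 reads. It kept its call with each library left out in turn and with edgeR, but not with DESeq2 (−1.67). osa-miR167c-3p had 95.4, 6.26 and 20.3 RPM under heat, against 317, 60.3 and 208 RPM in control. Heat replicate 1 was above control replicate 2 (log2 fold change −2.70, SE 1.01, limma adjusted p = 0.510), and the call did not hold without heat replicate 2, heat replicate 3, control replicate 1 or control replicate 3, where the log2 fold change was −1.82, −2.59, −2.20 and −2.50, nor with edgeR or DESeq2 (−1.83 and −1.76).

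The 5p strand, which directs cleavage of ARF6 and ARF8 mRNAs in Arabidopsis, was led by ccl-miR167a with 11540.1, 5666 and 11909 RPM under heat, against 33466, 9722 and 11965 RPM in control. Control replicate 1 was far above all others, and the remaining libraries overlapped (log2 fold change −0.77, SE 0.68, limma adjusted p = 0.736). tae-miR167c-5p, which differs from it only by A22C at the last base, had 5579, 12745 and 2441 RPM under heat, against 4647, 5424 and 4919.6 RPM in control, with heat replicate 2 the highest and heat replicate 3 the lowest of all libraries (log2 fold change 0.16, SE 0.67, limma adjusted p = 0.945). Without heat replicate 2 its log2 fold change was −0.43. bna-miR167a, with the substitution G21A relative to ccl-miR167a, had 2173, 559 and 1150.1 RPM under heat, against 8702, 2007 and 2668 RPM in control. Heat replicate 1 exceeded control replicate 2, and the name missed the call rule (log2 fold change −1.69, SE 0.74, limma adjusted p = 0.527). It passed the rule without heat replicate 1 (−2.16) and with the replicate number as a block.

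Among the less abundant 5p-type names, mdm-miR167h had 113, 54.2 and 113 RPM under heat, against 343, 2086 and 190.4 RPM in control. Control replicate 2 was more than 3 times above every other library, yet the groups did not overlap among the remaining libraries either (log2 fold change −2.53, SE 0.87, limma adjusted p = 0.482). Without control replicate 2 the log2 fold change was −1.52, and the call was lost only without heat replicate 2, where the log2 fold change was −2.18. ppt-miR167 had 17.3, 12.5 and 8.13 RPM under heat, against 46.5, 51.0 and 20.6 RPM in control, again with all heat libraries below control (log2 fold change −1.52, SE 0.64, limma adjusted p = 0.527), and its call did not hold without heat replicate 2, heat replicate 3, control replicate 1 or control replicate 2, where the log2 fold change was −1.54, −1.26, −1.35 and −1.29, nor with edgeR or DESeq2 (−1.41 and −1.27) or with the replicate number as a block.

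**Figure D3:**
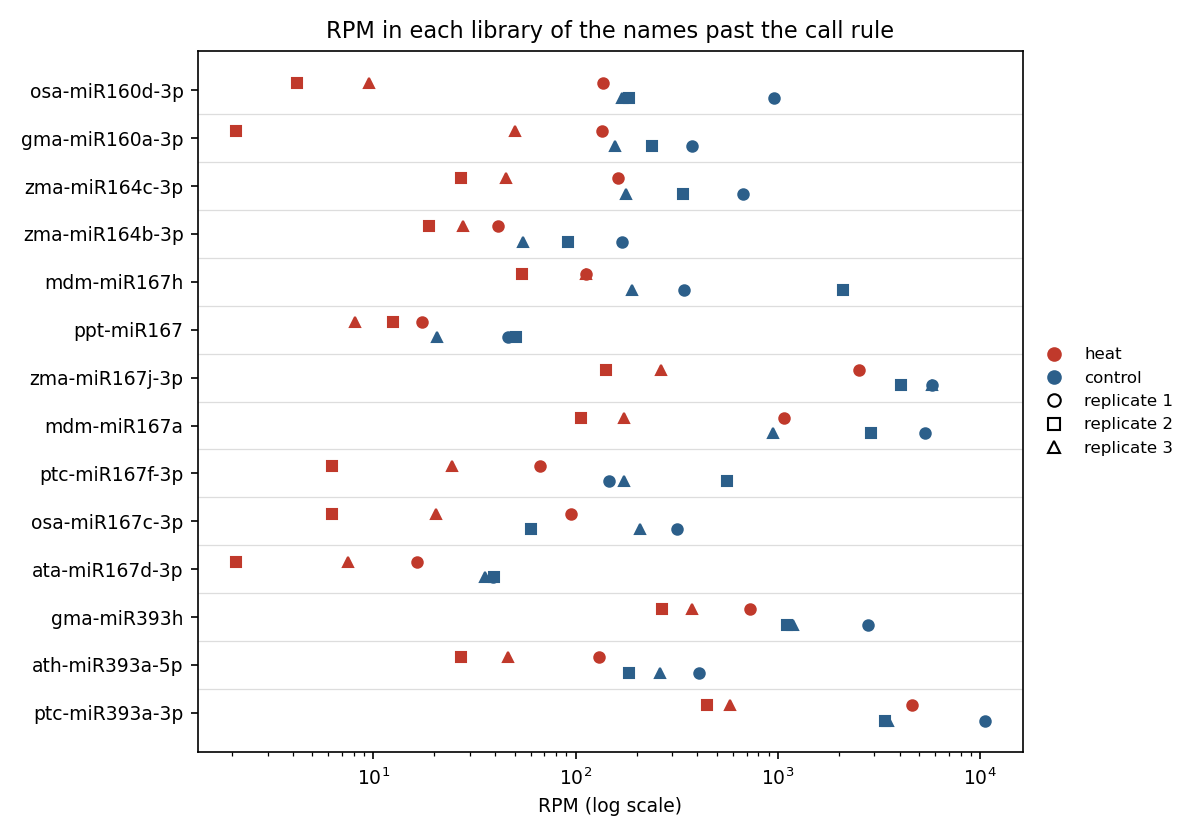
RPM (log scale) in each heat (red) and control (blue) library for the 14 names called lower under heat, in rows by family, with symbols for the replicate number. Heat points lie left of all control points in 11 rows, and the circle of heat replicate 1 is the rightmost heat point in 13 rows.

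In the miR393 family, whose 5p strand targets the auxin receptor mRNAs in Arabidopsis, 3 of 16 names (18.8%) were called lower, against 7.14% of all names. The most abundant 5p-type name, ata-miR393-5p, had 1499.7, 1517 and 1366 RPM under heat, against 1615, 1372 and 1014 RPM in control. The groups overlapped (log2 fold change 0.16, SE 0.45, limma adjusted p = 0.916). gma-miR393h holds the same 21 bases and 1 more at the 3′ end. It had 727, 267 and 374 RPM under heat, against 2788, 1108 and 1192 RPM in control, with every heat library below every control library (log2 fold change −1.89, SE 0.60, limma adjusted p = 0.455). ath-miR393a-5p, which starts 1 base later than gma-miR393h, shares 21 bases with it and ends 1 base later, had 130.1, 27.1 and 46.1 RPM under heat, against 408, 183 and 260.4 RPM in control, also without overlap (log2 fold change −2.28, SE 0.68, limma adjusted p = 0.443). Both kept their call with each library left out in turn. Under edgeR and DESeq2 neither was called, with log2 fold changes of −1.57 and −1.48 for gma-miR393h and −1.72 and −1.62 for ath-miR393a-5p.

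Both names were therefore set against ata-miR393-5p in each library. The ratio of gma-miR393h to ata-miR393-5p was 0.485, 0.176 and 0.274 under heat, against 1.73, 0.807 and 1.18 in control. For ath-miR393a-5p over ata-miR393-5p it was 0.0868, 0.0179 and 0.0337 under heat, against 0.253, 0.134 and 0.257 in control. Neither ratio overlapped between the groups, and both are free of the scaling by total reads. The ratio of bna-miR167a to ccl-miR167a was 0.188, 0.0987 and 0.0966 under heat, against 0.260, 0.206 and 0.223 in control, also without overlap. The ratio of tae-miR167c-5p to ccl-miR167a was 0.483, 2.25 and 0.205 under heat, against 0.139, 0.558 and 0.411 in control, which overlapped. Further ratios overlapped as well. That of vvi-miR160a to mes-miR160h was 0.648, 0.128 and 0.155 under heat, against 0.150, 0.230 and 0.988 in control. For zma-miR167j-3p over mdm-miR167a it was 2.35, 1.33 and 1.53 under heat, against 1.09, 1.41 and 6.11 in control. The ratio of zma-miR164h-5p to bra-miR164e-5p, given below, also overlapped. All these pairs were chosen after their values were seen, and the ratios were not tested.

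**Figure D4:**
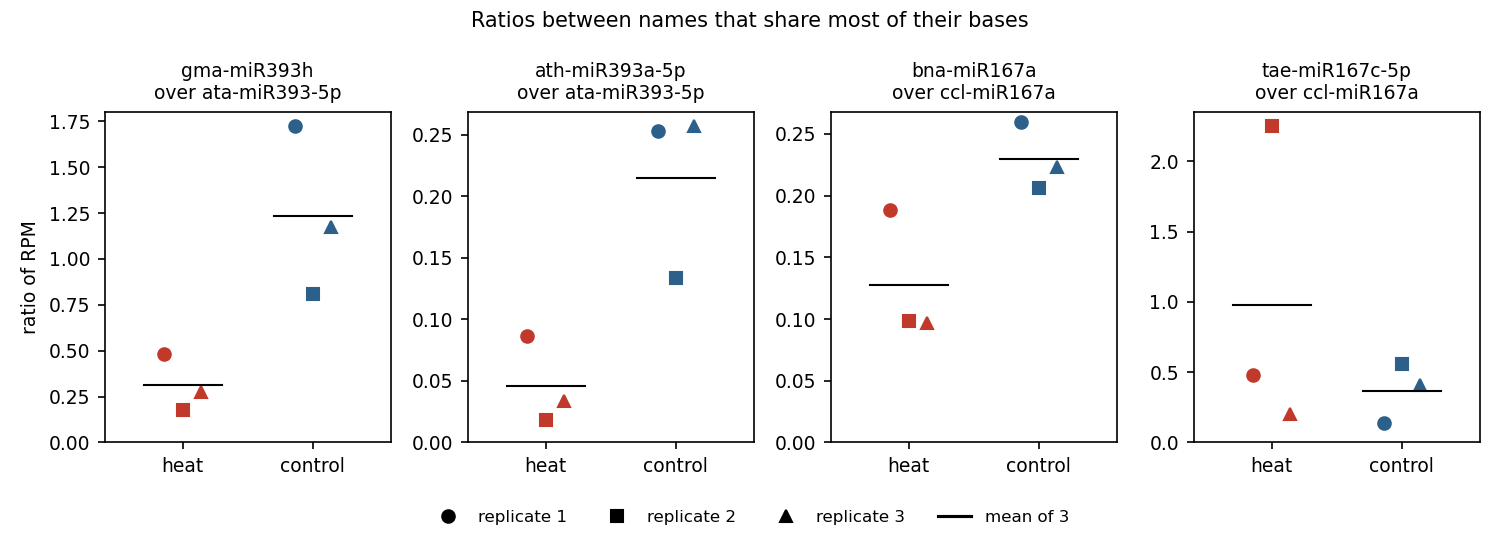
Ratio of RPM between pairs of 5p-type names that share most of their bases, in the 3 heat (red) and 3 control (blue) libraries, with a bar for the mean. The first 3 ratios are lower in every heat library than in any control library, with means of 0.311 against 1.24, 0.0461 against 0.214 and 0.128 against 0.230. Pairs given only in the text overlapped between the groups.

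The strand opposite to miR393 was led by ptc-miR393a-3p, the most abundant name of the family, with 4627, 444 and 577 RPM under heat, against 10569.8, 3384 and 3495 RPM in control. Heat replicate 1 lay within the control range while heat replicates 2 and 3 were well below it (log2 fold change −2.24, SE 0.94, limma adjusted p = 0.525). The call did not hold without heat replicate 2, heat replicate 3, control replicate 1, control replicate 2 or control replicate 3, where the log2 fold change was −1.61, −1.80, −1.70, −2.52 and −2.50, nor with edgeR or DESeq2, which gave smaller changes of −1.15 and −1.05. The next 3p-type name, ata-miR393-3p, had 254, 0 and 25.1 RPM under heat, against 118, 41.7 and 139 RPM in control, where heat replicate 1 was the highest of all libraries and heat replicate 2 had no read (log2 fold change −2.25, SE 1.72, limma adjusted p = 0.714). A count of 0 there allows up to 6.26 RPM. The value turned on single libraries, since it was −0.13 without heat replicate 2 and −4.13, past the call rule, without heat replicate 1, and edgeR and DESeq2 gave 0.34 and 0.43.

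In the miR160 family, whose 5p strand targets repressor-type ARF mRNAs in Arabidopsis, 2 of 18 names (11.1%) were called lower, against 7.14% of all names, and both were of the 3p type. mes-miR160h, the most abundant name, had 504, 390.1 and 410.0 RPM under heat, against 1223, 778 and 382 RPM in control. The heat libraries overlapped with control replicate 3 (log2 fold change −0.72, SE 0.55, limma adjusted p = 0.712). vvi-miR160a had 327, 50.1 and 63.7 RPM under heat, against 183, 179 and 377 RPM in control, with heat replicate 1 among the highest libraries and the other heat libraries lowest (log2 fold change −1.18, SE 0.77, limma adjusted p = 0.677). The third 5p-type name, ppt-miR160b, had 2.89, 4.17 and 0.678 RPM under heat, against 11.9, 3.43 and 2.29 RPM in control, a level of a few reads. The remaining 8 names of the type had a mean under 10 RPM.

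osa-miR160d-3p had 136, 4.17 and 9.49 RPM under heat, against 954, 184 and 169 RPM in control. The groups did not overlap, and control replicate 1 was more than 3 times above every other library (log2 fold change −3.99, SE 1.23, limma adjusted p = 0.443). The call did not hold without heat replicate 3, control replicate 1 or control replicate 2, where the log2 fold change was −3.55, −3.18 and −4.37, nor with edgeR or DESeq2, which gave smaller changes of −2.57 and −2.47. gma-miR160a-3p had 135, 2.09 and 50.2 RPM under heat, against 376, 237 and 157 RPM in control, again without overlap but with heat replicate 2 at a single read (log2 fold change −3.12, SE 1.25, limma adjusted p = 0.521). It was not called without heat replicate 2, heat replicate 3, control replicate 1, control replicate 2 or control replicate 3, where the log2 fold change was −1.54, −3.56, −2.81, −3.13 and −3.43, nor after rescaling by the median ratio or with edgeR or DESeq2 (−1.64 and −1.49).

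The study named ghr-miR160 among its miRNAs of interest and reported it as higher after heat. By its account, qRT-PCR of this miRNA and of its predicted target gave the same directions as its sequencing. In the deposited values ghr-miR160 was an exception in sequence and in level.
ghr-miR160: uAUGAGGAgccaugcauguau
ath-miR160a-3p: gCGUAUGAggagccaugcaua
Its first 17 bases, counted from the 5′ end, are bases 4 to 20 of ath-miR160a-3p, so that it was put with the 3p type. ghr-miR160 had 0, 87.6 and 2.03 RPM under heat, against 2.17, 2.94 and 1.15 RPM in control. Of its 54 reads 42 came from heat replicate 2, and the other libraries had between 0 and 6 (log2 fold change 1.11, SE 1.5, limma adjusted p = 0.796). Without heat replicate 2 its limma log2 fold change was −0.78. The study screened miRNAs with edgeR on read counts, so that its fold change is not on the scale of the limma value. On the recovered reads of all libraries DESeq2 gave a log2 fold change of 3.79 and called ghr-miR160 higher. ath-miR160a-3p, shown beside it for its sequence, had 38.6, 33.4 and 11.5 RPM under heat, against 27.1, 182 and 5.74 RPM in control, with control replicate 2 alone high.

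The miR164 family targets NAC transcription factors in Arabidopsis, and 2 of its 23 names (8.70%) were called lower, close to the 7.14% of all names. No 5p-type name of the family was called. bra-miR164e-5p had 1539, 3319 and 3511 RPM under heat, against 2752, 1665 and 2209 RPM in control, where heat replicate 1 was the lowest and heat replicate 3 the highest of all libraries (log2 fold change 0.28, SE 0.54, limma adjusted p = 0.868). zma-miR164h-5p had 322, 803 and 656 RPM under heat, against 566, 345 and 531 RPM in control (log2 fold change 0.24, SE 0.53, limma adjusted p = 0.883), and its ratio to bra-miR164e-5p stayed between 0.187 and 0.242 in all 6 libraries. osa-miR164d had 75.2, 202 and 213 RPM under heat, against 56.3, 493 and 122 RPM in control, with control replicate 2 the highest (log2 fold change −0.02, SE 0.84, limma adjusted p = 0.995). Without control replicate 2 its log2 fold change was 0.83.

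The 3p-type names of miR164 did not follow a common pattern. aly-miR164c-3p had 19.3, 853 and 934 RPM under heat, against 469.8, 532 and 17.2 RPM in control, which put heat replicates 2 and 3 with control replicates 1 and 2 and left heat replicate 1 and control replicate 3 under 20 RPM (log2 fold change 0.61, SE 1.73, limma adjusted p = 0.915). zma-miR164c-3p had 163, 27.1 and 45.4 RPM under heat, against 669, 341 and 178 RPM in control, with no overlap and heat replicate 1 just below control replicate 3 (log2 fold change −2.53, SE 0.78, limma adjusted p = 0.443). Its call was lost without control replicate 1 or control replicate 2, where the log2 fold change was −2.05 and −2.53, and with edgeR and DESeq2 (−1.93 and −1.79). zma-miR164b-3p had 41.4, 18.8 and 27.8 RPM under heat, against 169, 92.2 and 55.1 RPM in control, also without overlap (log2 fold change −1.73, SE 0.62, limma adjusted p = 0.482), and lost its call without heat replicate 2, heat replicate 3, control replicate 1 or control replicate 2, where the log2 fold change was −1.46, −1.73, −1.32 and −1.75, and with edgeR and DESeq2 (−1.55 and −1.43).

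Some members were far higher in 1 library than in any other. These names were chosen after their values were seen. In heat replicate 2, gma-miR167k, ath-miR167a-3p and aly-miR167d-3p were, like ghr-miR160, more than 3 times above every other library. These were 4 of the 52 members with a mean of at least 10 RPM, against 33 of 901 such names in the whole table (3.66%). gma-miR167k had 19.3, 234 and 63.7 RPM under heat, against 44.4, 20.6 and 22.9 RPM in control, which overlapped (log2 fold change 1.24, SE 0.89, limma adjusted p = 0.698). Its heat replicate 3 was also above every control library. DESeq2 called it higher (1.90), and so did limma without heat replicate 1 (2.11), while without heat replicate 2 its log2 fold change was 0.34. ath-miR167a-3p had 6.75, 407 and 22.4 RPM under heat, against 19.5, 53.9 and 37.9 RPM in control. Without heat replicate 2 its log2 fold change was −1.39, while with all libraries it was 0.25. In control replicate 2, besides mdm-miR167h, ptc-miR167f-3p and ath-miR160a-3p, the names aly-miR167b-3p, ath-miR164b-3p and sly-miR167b-3p were more than 3 times above every other library. These were 6 of the 52 members, against 134 of the 901 names (14.9%). aly-miR167b-3p had 14.5, 27.1 and 15.6 RPM under heat, against 82.3, 355 and 4.59 RPM in control and ath-miR164b-3p had 1.93, 8.35 and 5.42 RPM under heat, against 14.1, 155 and 2.29 RPM in control. In both, heat lay within the range of the other control libraries or below it. Neither was called by limma over all libraries (−1.51 and −1.82), while DESeq2 called both lower (−2.62 and −3.21), and so did limma without control replicate 3 (−3.16 and −3.11). Without control replicate 2 the limma values were −0.16 and −0.33.

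The rest of the members were scarce. Of the 87 names 52 had a mean of at least 10 RPM and 22 a mean of at least 100 RPM, while 9 had a mean under 1 RPM. 66 names had reads in every library. All 14 called names were among the 52. Heat was below every control library in 12 of the 87 members, against 158 of all 1597 names (9.89%). It was above every control library in 1 of the 87, stu-miR167c-3p, against 72 of all 1597 names (4.51%). The values of stu-miR167c-3p, named after they were seen, were 3.86, 8.35 and 4.07 RPM under heat, against 3.25, 2.45 and 3.44 RPM in control. The 12 are 11 called names and mtr-miR393b-3p, likewise named after the fact, with 10.6, 12.5 and 11.5 RPM under heat, against 29.2, 37.8 and 14.9 RPM in control (log2 fold change −1.08, SE 0.62, limma adjusted p = 0.605).

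The study predicted targets by sequence complementarity for miRNAs that it had screened as changed in these libraries. The part of that list at hand, with the pair of ghr-miR160, held 29 pairs of 6 members with 28 unigenes, namely 14 pairs of ath-miR164b-3p, 5 of ata-miR167d-3p, 4 of ptc-miR167f-3p, 3 of mdm-miR393d, 2 of mdm-miR167h and 1 of ghr-miR160. The annotations at hand for these unigenes named no auxin response factor and no auxin receptor, and targets of the abundant 5p-type names were not analysed here. Of the 28 unigenes 15 had a mean of at least 1 TPM and were tested. 1 was called higher and 0 lower at an adjusted p under 0.05 with a log2 fold change over 1 in size, against 6.0% called higher and 4.05% lower of 68978 unigenes tested. The median log2 fold change of the 15 was 0.26, against 0.17 over all tested unigenes. At an unadjusted p under 0.05 limma had 1 higher and 1 lower of the 15. The share of all tested unigenes at that threshold is not given here, so that these counts have no background.

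The unigene called higher was TRINITY_DN73495_c3_g5, a predicted target of ath-miR164b-3p whose annotation names RNA modification in the chloroplast. It had 3.34, 2.39 and 2.95 TPM under heat, against 0.409, 0.263 and 1.22 TPM in control, with no overlap between the groups (log2 fold change 1.29, SE 0.32, limma adjusted p = 0.0296). Its call was lost with no filter on TPM (adjusted p = 0.0989) and without heat replicate 2, heat replicate 3, control replicate 1 or control replicate 2, where the log2 fold change was 1.39, 1.28, 1.21 and 1.13. Its miRNA, given above, was not called by limma over all libraries, and was called lower by DESeq2 and by limma without control replicate 3.

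TRINITY_DN71553_c1_g1, the predicted target of ghr-miR160, is annotated with NAD+ ADP-ribosyltransferase activity. It had 5.73, 5.18 and 4.24 TPM under heat, against 11.4, 9.06 and 11.5 TPM in control. All heat libraries were below all control libraries (log2 fold change −0.95, SE 0.25, limma adjusted p = 0.0378), while the log2 fold change stayed just inside the threshold of 1. The study had chosen this pair for its opposite directions, so that the direction of the unigene is no independent evidence. After rescaling by the median ratio it was called lower (−1.13, limma adjusted p = 0.0215).

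Unigenes annotated with auxin terms came from 2 lists. Of 7 unigenes under auxin terms in the annotation of predicted targets, 5 had a mean of at least 1 TPM. By limma 0 of them were called in either direction, against the 6.0% higher and 4.05% lower of all tested unigenes. The count was also 0 at an unadjusted p under 0.05, for which the share of all tested unigenes is not given here. TRINITY_DN75577_c0_g3, annotated with auxin receptor activity, the function that miR393 targets in Arabidopsis, had 34.8, 19.2 and 27.3 TPM under heat, against 31.9, 40.5 and 30.8 TPM in control. The groups overlapped (log2 fold change −0.36, SE 0.27, limma adjusted p = 0.414), while the miR393 sum was lower in 2 of 3 heat libraries than in any control library.

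The other list held 4 unigenes with the word auxin in any annotation field of the part of the gene table at hand. Only SAUR32 carries it in the name of its nearest protein, and the others carry it in a protein domain or GO term. The study chose that table as changed in these libraries, so their direction is not independent evidence. All 4 were called higher by limma. The 6.0% of all tested unigenes is no background for this count, since the list held only unigenes already screened as changed. TRINITY_DN70787_c2_g1, annotated as SAUR32, a small auxin-responsive protein, had 6.69, 8.56 and 10.6 TPM under heat, against 1.62, 2.09 and 3.40 TPM in control (log2 fold change 1.53, SE 0.30, limma adjusted p = 0.0119). TRINITY_DN65599_c1_g1, annotated as BIG GRAIN 1-like E, of a family linked to auxin transport, had 24.9, 54.5 and 67.0 TPM under heat, against 8.99, 7.84 and 12.8 TPM in control (log2 fold change 2.11, SE 0.36, limma adjusted p = 0.00706). Neither overlapped between the groups. TRINITY_DN44451_c0_g1, annotated as dormancy-associated protein homolog 3, had 171, 269 and 276 TPM under heat, against 118, 101 and 76.5 TPM in control (log2 fold change 1.26, SE 0.28, limma adjusted p = 0.0215), and TRINITY_DN72101_c4_g4, annotated as the corepressor LEUNIG, had 12.7, 6.17 and 9.61 TPM under heat, against 1.86, 1.41 and 1.94 TPM in control (log2 fold change 1.89, SE 0.30, limma adjusted p = 0.00490). Both were again higher in every heat library than in any control library. With no filter on TPM 1 of the 4 was called, and 2 without heat replicate 3. None of these unigenes was on the list of predicted targets at hand for the members.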

How the data were processed

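Leaf miRNA-seq and RNA-seq were each measured in 3 heat and 3 control libraries, grouped by the letters in the sample titles. For the miRNA table the authors clipped adapters (cutadapt), trimmed by quality (trimmomatic), filtered reads by length to 17 to 35 bases, discarded Rfam hits (BLASTN), compared the remaining reads with known plant miRNAs of miRBase and deposited RPM values, scaled to the reads assigned to the listed names. How reads that fit several near-identical names were assigned is not given in the sources used here, so that names of a family may share reads. For the RNA-seq table the authors assembled unigenes with Trinity, estimated abundance with Salmon and deposited TPM values, from which the depth cannot be read. Versions are not given in the sources used here. Read numbers were recovered from the RPM step of each library, and 9582 of 9582 values came to whole reads within 0.01, and 3 reads were taken as the limit that a count of 0 allows. Intervals and limits cover counting error only.

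miRNA names and sums of names by family number were fitted by limma 3.58.1 under R 4.3.3 on log2(RPM + 1), with a trended eBayes step, over all 1597 names and all 699 numbers. The call rule was that of the study, namely 0.05 for the unadjusted p together with 1 for the size of the log2 fold change, with the Benjamini-Hochberg adjusted p beside it. Unigenes averaging 1 TPM or more (68978 of 208217) were tested likewise on log2(TPM + 1), with the rule applied to the adjusted p. A fold change on these scales understates the change of low values. Shares of the 3p type were compared by two-sided exact permutation tests in Python 3.11.15. Sequences, annotations and the number of clean reads of each miRNA library, but no expression values, were read from the study's supplementary tables. Those tables were used only as far as at hand, and the clean reads served only for an alternative scaling. The fits were tested on simulated data.

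The names in the text are, per family, the 3 most abundant 5p-type and 2 most abundant 3p-type names, every member past the call rule, ghr-miR160, every predicted target past its test, the target of ghr-miR160 and an auxin receptor unigene. Other names are marked as chosen after their values were seen. The members, lists and rules were chosen with earlier results of these data known. The alternatives were other pseudocounts, filters and scalings, robust eBayes, edgeR 4.0.16 and DESeq2 1.42.0 on the recovered reads, leaving out each library in turn, a fit blocked by replicate number and calls without a fold threshold.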

Additional observations from a re-analysis of the deposited data

How the results depend on the processing

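Of 192 values of the main comparisons recomputed under an alternative, all but 28 kept their direction and their side of the threshold (for counts, stayed within 1.5 times). For the shares of the 3p type only the direction was compared. A share difference was therefore counted as kept also where it shrank strongly, as given above for miR393 and miR160. With each library left out in turn, the log2 fold change of the family sums ranged from −1.56 to −0.85 for miR160, from −0.14 to 0.48 for miR164 and from −1.80 to −0.82 for miR393. The members called lower, 14 in all, ranged from 6 to 18 and those called higher from 0 to 1, without the share of all names beside them. Of the predicted targets 0 to 1 were called higher and 0 to 1 lower, and 2 to 4 of the auxin unigenes of the gene table were called higher. On the recovered reads edgeR called 3 members lower and DESeq2 4 lower and 2 higher, and at an adjusted p under 0.05 limma called 0 members lower. With no filter on TPM 0 predicted targets and 1 auxin unigene of the gene table were called higher. With a pseudocount of 0.1 TPM, after rescaling by the median ratio, and with no fold threshold 1 predicted target, TRINITY_DN71553_c1_g1, was called lower in each case.

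Signs changed only in values that had not passed the call rule. With a library left out, the log2 fold change ranged from −0.031 to 0.63 for zma-miR164h-5p, from −0.72 to 0.83 for osa-miR164d, from −0.99 to 2.43 for aly-miR164c-3p, from −0.43 to 0.76 for tae-miR167c-5p, from −0.029 to 0.31 for ata-miR393-5p and from −0.78 to 2.45 for ghr-miR160. It ranged from −1.39 to 1.47 for ath-miR167a-3p, from −1.48 to 0.90 for ath-miR160a-3p and from −1.44 to 0.17 for sly-miR167b-3p. For osa-miR164d it was 0.22 after rescaling by the median ratio and 0.14 with TMM factors, and for ata-miR393-3p 0.34 with edgeR and 0.43 with DESeq2. The cause was not tested.

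Libraries of the same replicate number did not deviate together (r = −0.07, 0.08 and −0.09 for miRNA-seq and −0.14, −0.06 and 0.14 for RNA-seq), so that the numbers were not taken as pairs. With the replicate number as a block 14 members were called lower, of which 13 were those called without it, since ppt-miR167 lost its call and bna-miR167a gained one. The share of all names called in that fit is not given here. With that block the miR393 family sum passed the call rule (−1.27), and the share of all family sums that passed is likewise not given. With 479324 reads, heat replicate 2 sets the limit for scarce names, since 1 read there is worth 2.09 RPM.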
